A study of Mus musculus with 24 samples.

Results

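The genes described here are 10 transcriptional regulators of the brown fat programme: Prdm16, Ebf2, Lhx8, Ppargc1a, Ppargc1b, Ppara, Esrra, Esrrg, Irf4 and Tfam. They were chosen by name, and all 10 were found among the 49452 genes of the deposited expression table. The study asked what the long non-coding RNA H19 does in brown adipocyte formation. Stromal vascular cells, the fraction of fat tissue that holds adipocyte precursors, were taken from brown adipose tissue (BAT) or from epididymal white fat, called visceral white adipose tissue (vWAT) here, of C57BL/6 mice. All cultures were nucleofected, either with a non-targeting control siRNA (siCtrl) or with an siRNA against H19 (siH19). The sample titles call the control siKO and the knockdown siH19_3, so every siH19 effect rests on a single siRNA. Which of the study's oligos that siRNA was could not be settled here. RNA was sequenced on day 0 (d0) or on day 3 (d3) of differentiation. The 8 groups of depot, siRNA and day held 3 libraries each, 24 in all. BAT and vWAT cultures received different differentiation media, with indomethacin and triiodothyronine named for BAT and rosiglitazone kept on for vWAT. The names of the BAT and vWAT libraries carry different prefixes, whose meaning the labels do not give. Depot, medium and whatever the prefix stands for thus cannot be told apart. The labels do not say that the 3 libraries of a group came from separate animals, so each p-value measures the spread between these libraries, which may be technical.

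A brown adipocyte burns fat in mitochondria that carry the uncoupling protein Ucp1, and its gene programme is set in layers. Ebf2 and Prdm16 act early, in the precursor, to open and hold brown-selective enhancers, and Lhx8 is a homeobox factor used as a marker of the classical brown lineage. The coactivators PGC-1α (Ppargc1a) and PGC-1β (Ppargc1b) then work through nuclear receptors such as PPARα (Ppara), ERRα (Esrra) and ERRγ (Esrrg) to raise fatty acid oxidation and mitochondrial genes, Irf4 partners PGC-1α at Ucp1, and Tfam packages and transcribes mitochondrial DNA.

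Levels are FPKM, fragments scaled by transcript length and by library size, so they can be set side by side between genes. Differences were tested on log2(FPKM + 1), which understates the change of low genes, and a gene passed when its adjusted p was under 0.05 and its change was at least 1.3-fold on that scale. A gene was tested where it reached 1 FPKM in at least 3 libraries of the comparison, which left out some of the 10 regulators in each comparison. A gene low in 1 group could thus be tested through its high group alone. Counts of direction among tested genes depend in part on this filter.

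The libraries expressed between 12311 and 13125 genes at 1 FPKM or more, and the median correlation of a library with its own group lay between 0.974 and 0.980. The steps between the lowest FPKM values gave a depth of 0.84 to 1.0 in BAT and of 1.035 to 1.187 in vWAT, relative to the first BAT siCtrl d0 library, with at least 15.6% of the low genes compared at that step in each library. H19 fell in all 4 siH19 groups, to 0.0335 of the siCtrl level in BAT d0, 0.153 in BAT d3, 0.103 in vWAT d0 and 0.0615 in vWAT d3. Adipocyte markers were at or above 1 FPKM for 4 of 5 genes in every group, and their summed level rose from 2282 to 2470 FPKM in BAT siCtrl d0 to 33400 to 35047 FPKM in BAT siCtrl d3. Mesothelial markers summed to at most 0.788 FPKM in BAT and to 35.8 to 122 FPKM in vWAT.

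**Figure D1:**
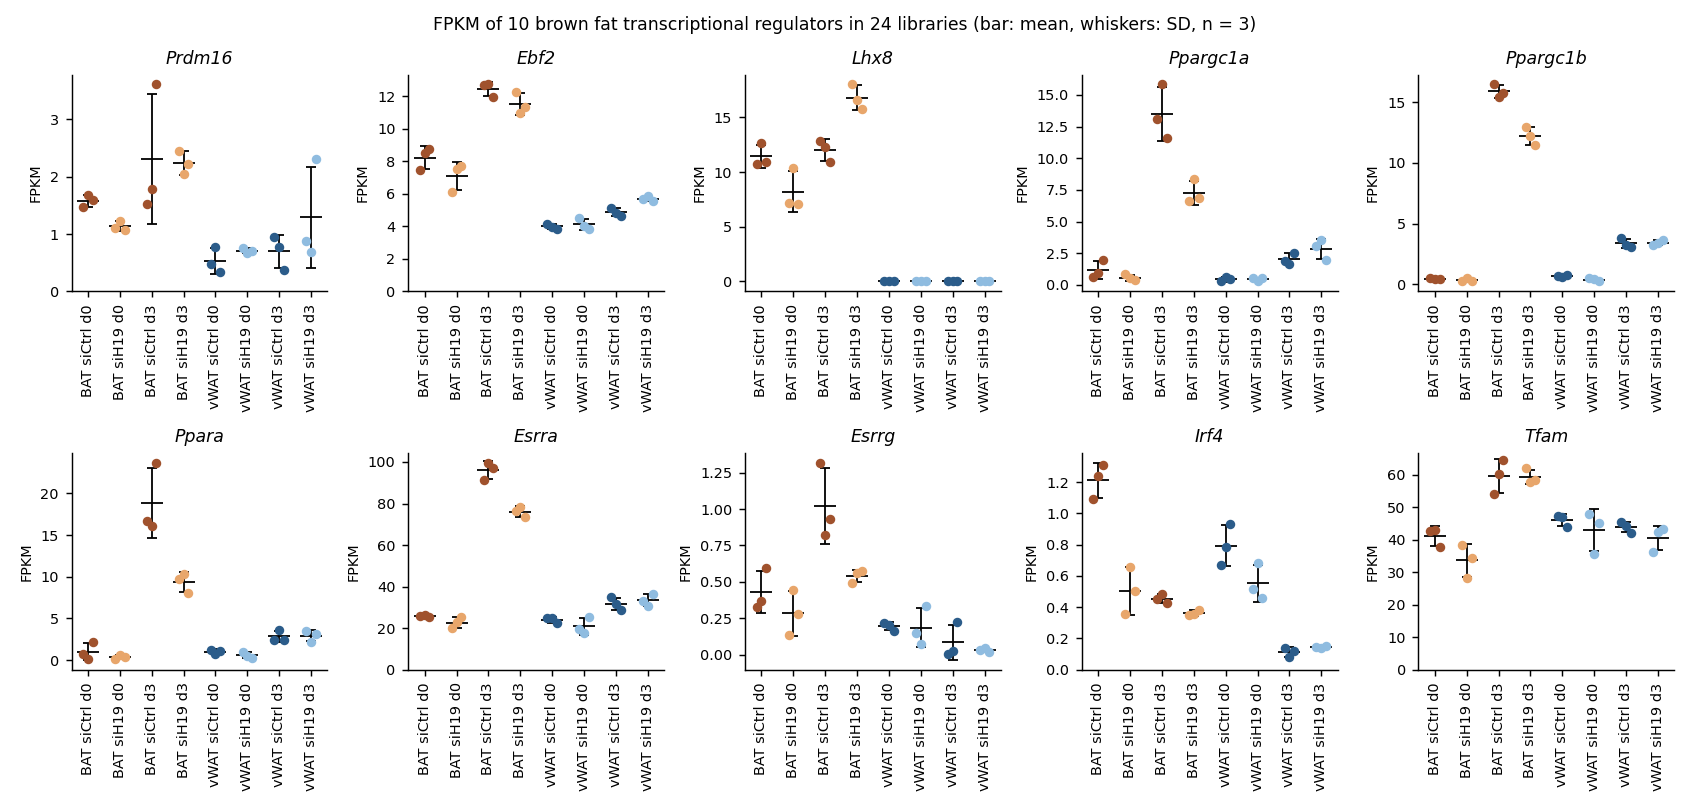
FPKM of each regulator (y axis, one scale per panel, starting near 0) in the 8 groups of depot, siRNA and day (x axis), with 3 points for the 3 libraries of a group, a bar for the mean and whiskers for the SD. Ppargc1a, Ppargc1b, Ppara and Esrra stand highest in BAT siCtrl d3 and lower in BAT siH19 d3, Lhx8 stands highest in BAT siH19 d3 and near 0 in vWAT, and Tfam overlaps between siCtrl and siH19 at d3.

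Among the regulators of brown identity, Ebf2 and Lhx8 were clearly expressed in BAT precursors before differentiation, and Prdm16 was low. Ebf2, the pioneer factor of the brown lineage, was at 7.46, 8.51 and 8.74 FPKM in BAT siCtrl d0 and at 4.17, 3.99 and 3.84 FPKM in vWAT siCtrl d0. Lhx8 was at 10.7, 12.7 and 10.97 FPKM in BAT siCtrl d0 and at 0.0215, 0 and 0.0734 FPKM in vWAT siCtrl d0. Prdm16, the coregulator that holds brown identity against muscle and white fat genes, was at 1.47, 1.67 and 1.60 FPKM in BAT siCtrl d0 and at 0.472, 0.775 and 0.340 FPKM in vWAT siCtrl d0. The depots did not overlap for any of these 3 genes. The share of all genes without overlap was not taken, here or in other comparisons, so non-overlap only describes the genes named. At d0, 3 of the 7 regulators tested were higher in BAT than in vWAT and none was lower, where 31.2% of all genes tested passed and 10.2% passed as higher in BAT. The 3 were Lhx8 (log2 difference 3.59, SE 0.09, adjusted p = 1.1e-06), Ebf2 (0.88, SE 0.08, adjusted p = 0.000223) and Prdm16 (0.76, SE 0.12, adjusted p = 0.00288). The log2 difference of Lhx8 is set by the added 1 FPKM, since vWAT was near 0, and no fold is given for it. Lhx8, Prdm16 and Irf4 were under 1 FPKM in vWAT siCtrl d0 and were tested through BAT alone, Irf4 without passing. Ppargc1b, lower in BAT without overlap, lay under the filter.

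Lhx8 was listed at or near 0 in all 12 vWAT libraries, with a highest value of 0.0734 FPKM. The 3 genes whose pattern over the 8 group means was most like that of Lhx8 were Myoz2 (Pearson r = 0.998), Lmod2 (0.994) and Klhl41 (0.993), which encode proteins of the muscle sarcomere or its assembly. Markers of the skeletal muscle lineage, 6 in all, summed to 10.5 to 37.8 FPKM in BAT and to at most 0.0777 FPKM in vWAT. Their part in the Lhx8 level was not tested. In BAT siH19 d3, where Lhx8 was highest, the sum was 14.3 to 18.01 FPKM, against 10.5 to 13.9 FPKM in BAT siCtrl d3, and at d0, where Lhx8 was at 7.09 to 10.4 FPKM under siH19, it was 22.3 to 37.8 FPKM.

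None of the genes that carry out the mitochondrial programme passed between the depots at d0. Tfam was the most abundant of the 10 at d0, at 41.1 ± 3.00 FPKM (SD, n = 3) in BAT siCtrl and 46.0 ± 1.84 FPKM in vWAT siCtrl. Esrra, the constitutively active orphan receptor through which PGC-1 acts, followed at 25.8 ± 0.54 FPKM in BAT and 24.04 ± 1.33 FPKM in vWAT. The log2 difference between depots had a 95% interval of -0.32 to 0.00 for Tfam and of -0.03 to 0.23 for Esrra. Ppargc1a, Ppargc1b and Ppara were low in both depots at d0, with siCtrl means of 0.442 to 1.19 FPKM. Ppargc1a (means 1.19 in BAT and 0.456 FPKM in vWAT) and Ppargc1b (0.442 and 0.675 FPKM) did not overlap between depots, but both lay under the filter and were not tested. Tfam did not overlap either, being lower in BAT. Ppara varied most, at 0.780, 0.171 and 2.12 FPKM in BAT siCtrl d0.

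Over the first 3 days of differentiation the PGC-1 branch rose many-fold in BAT. Ppargc1b went from 0.479, 0.433 and 0.414 FPKM to 16.5, 15.4 and 15.8 FPKM, a ratio of means of 36.0 (log2 difference 3.55, SE 0.07, adjusted p = 6.7e-08). Ppara, the receptor that drives fatty acid oxidation genes, reached 16.7, 16.1 and 23.7 FPKM at d3 (3.39, SE 0.35, adjusted p = 0.000124). Ppargc1a, the cold-inducible coactivator, went from 0.658, 0.915 and 1.99 FPKM to 13.1, 15.8 and 11.6 FPKM (2.77, SE 0.23, adjusted p = 4.0e-05). Every d3 library stood above every d0 library for these 3 genes. Esrra went from 25.8 ± 0.54 to 96.0 ± 4.24 FPKM (SD, n = 3), which made it the most abundant of the 10 at d3.

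Ebf2, Tfam, Lhx8 and Prdm16 moved less over the same days. Ebf2 rose from 8.24 ± 0.68 to 12.5 ± 0.42 FPKM and Tfam from 41.1 ± 3.00 to 59.7 ± 5.22 FPKM, both by about 1.5-fold (ratios of means 1.51 and 1.45) and without overlap. Lhx8, at 12.8, 12.3 and 10.9 FPKM in BAT siCtrl d3, overlapped its d0 values. Prdm16 was at 1.53, 1.78 and 3.62 FPKM in BAT siCtrl d3 and overlapped d0 as well, with 1 library standing apart from the other two. In BAT siCtrl, 6 of the 9 regulators tested rose and Irf4 fell, where 65.2% of all genes tested passed, 29.9% as higher and 35.3% as lower at d3. Of these, Ppargc1b was under 1 FPKM in every d0 library and was tested through d3 alone. Irf4 was under 1 FPKM in every d3 library and was tested through d0 alone. In BAT siH19, all 8 tested rose, where 60.6% of all genes passed and 30.8% as higher. Of the 8, Ppargc1a, Ppargc1b and Ppara were under 1 FPKM in every BAT siH19 d0 library and were tested through d3 alone. Irf4, with means of 0.504 FPKM at d0 and 0.362 FPKM at d3 in BAT siH19, lay under the filter.

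In vWAT the same 4 genes of the PGC-1 branch rose, to lower d3 levels than in BAT. Ppargc1a was at 1.86, 1.68 and 2.55 FPKM in vWAT siCtrl d3, Ppargc1b at 3.79, 3.21 and 3.09 FPKM and Ppara at 2.46, 3.59 and 2.46 FPKM. Each of the 3 stood above all vWAT siCtrl d0 libraries. Esrra reached 34.8, 31.5 and 28.9 FPKM, a ratio of means of 1.32 to d0, and it failed the fold minimum once libraries were rescaled by median ratios or when vWAT siCtrl d0 replicate 3 or d3 replicate 1 was left out (log2 difference 0.38, between 0.32 and 0.45 over the alternatives). Tfam did not pass in vWAT, at 43.9 ± 1.67 FPKM at d3, with a 95% interval of -0.19 to 0.05 for the log2 difference. Of the 6 regulators tested, 4 rose in vWAT siCtrl and 5 in vWAT siH19, the fifth being Ebf2. Ppargc1a and Ppargc1b were under 1 FPKM in every vWAT d0 library, and Ppara in every vWAT siH19 d0 library. They were tested there through d3 alone. The shares of all genes tested that passed were 50.3% and 52.7%, and those that passed as higher were 26.3% and 28.2%. The rise of Ebf2 in vWAT siH19 (log2 difference 0.39) was at the fold minimum and was lost under median-ratio scaling and without d0 replicate 2, d0 replicate 3 or d3 replicate 2.

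**Figure D2:**
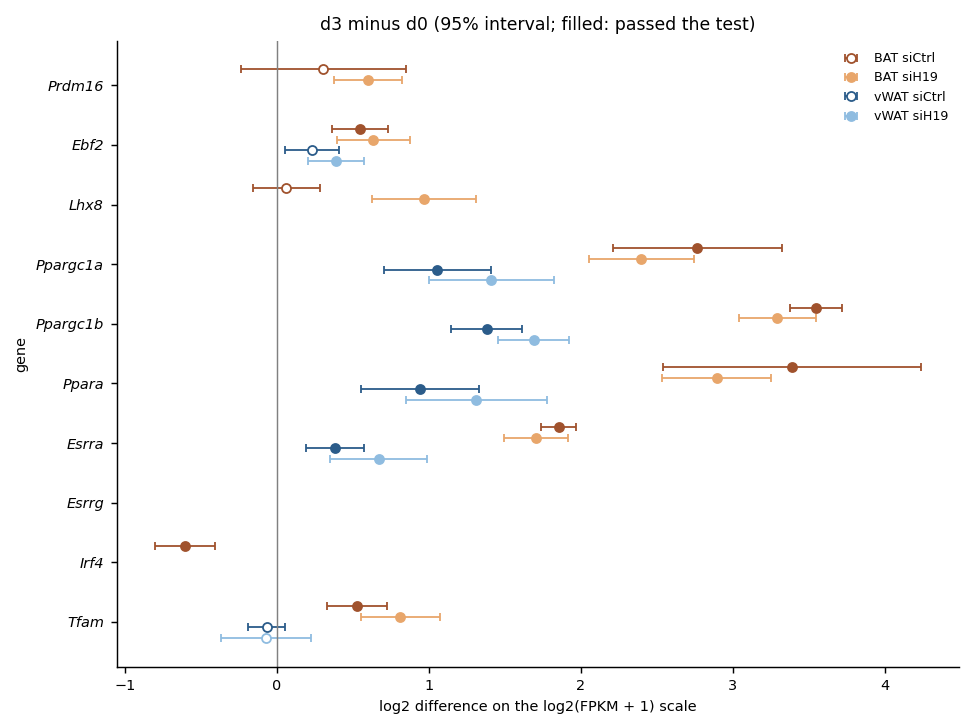
Difference between d3 and d0 for each regulator tested (x axis, log2(FPKM + 1) scale, genes on the y axis), in 4 combinations of depot and siRNA, with 95% intervals and filled symbols where the test was passed. The BAT points lie between 1.71 and 3.55 for Ppargc1a, Ppargc1b, Ppara and Esrra, and the vWAT points between 0.38 and 1.69.

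The size of the rise differed between depots for 6 of the 9 regulators tested in siCtrl, each rising more in BAT, where 53.0% of all genes tested passed this interaction and 24.9% passed as rising more in BAT. The difference between the depots' log2 changes was 2.45 (SE 0.43, adjusted p = 0.000662) for Ppara, 2.17 (SE 0.11, adjusted p = 6.4e-08) for Ppargc1b, 1.71 (SE 0.30, adjusted p = 0.000634) for Ppargc1a and 1.47 (SE 0.09, adjusted p = 3.5e-07) for Esrra. It was smaller for Tfam (0.59) and Ebf2 (0.32). At d3, all 8 regulators tested were higher in BAT siCtrl than in vWAT siCtrl, where 48.6% of all genes passed and 16.5% passed as higher. Lhx8 and Prdm16 were under 1 FPKM in all vWAT siCtrl d3 libraries and were tested through BAT alone. Ppargc1a stood 6.65-fold and Ppara 6.64-fold above vWAT by the ratio of means, Ppargc1b 4.73-fold, Esrra 3.03-fold, Ebf2 2.56-fold and Tfam 1.36-fold. Prdm16 was 3.31-fold higher, but without vWAT siCtrl d3 replicate 3 its adjusted p was 0.0524. The call of Tfam was lost without BAT siCtrl d3 replicate 3, when its log2 difference fell to 0.37, under the fold minimum. Median log2 differences over all genes tested were -0.13 at d0 and -0.16 at d3 and moved to -0.02 and -0.04 under median-ratio scaling, a shift smaller than any called difference of the 10.

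Ppargc1a (chr5:51454250-51567726, minus strand, GRCm38) and Ppara (chr15:85734983-85802819, plus strand) fell with siH19 in BAT at d3. Ppargc1a was at 6.59, 8.37 and 6.88 FPKM in BAT siH19 d3, against 13.1, 15.8 and 11.6 FPKM in siCtrl, a ratio of means of 0.539 (log2 difference -0.81, SE 0.13, adjusted p = 0.0108). Ppara was at 9.71, 10.3 and 8.08 FPKM, against 16.7, 16.1 and 23.7 FPKM, a ratio of 0.497 (-0.92, SE 0.16, adjusted p = 0.0126). All siH19 libraries lay below all siCtrl libraries for both genes, and both calls held without any 1 of the 6 libraries. In bulk RNA, fewer cells that express a gene and less of its RNA per cell cannot be told apart.

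Ppargc1b and Esrra were also lower but did not reach the 1.3-fold minimum. Ppargc1b was at 12.99, 12.2 and 11.5 FPKM under siH19, against 16.5, 15.4 and 15.8 FPKM (log2 difference -0.35, SE 0.07, adjusted p = 0.0181). Esrra was at 76.2, 78.5 and 73.4 FPKM, against 91.3, 99.5 and 97.1 FPKM (-0.33, SE 0.05, adjusted p = 0.00808). Neither overlapped siCtrl, and both passed under median-ratio scaling. Trmt112, which reached 59.9 FPKM, overlaps Esrra on the other strand, and Gm25301, which reached 24.3 FPKM, overlaps Ppargc1b on the other strand. Mir6990, which reached 24.1 FPKM, overlaps Esrra on the same strand. Gm10860, which reached 2.44 FPKM, overlaps Ebf2 on the other strand. Whether the counting used strand is not given in the sources used here, so the levels of Esrra, Ppargc1b and Ebf2 are uncertain by reads shared with these neighbours.

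Lhx8 (chr3:154306294-154330659, minus strand, GRCm38) moved the other way and was the only one of the 8 regulators tested that rose with siH19 in BAT at d3. It was at 18.02, 16.6 and 15.8 FPKM in siH19 and at 12.8, 12.3 and 10.9 FPKM in siCtrl, a ratio of 1.40 (log2 difference 0.46, SE 0.08, adjusted p = 0.0156) without overlap. Without BAT siH19 d3 replicate 1 or BAT siCtrl d3 replicate 2 the call was lost, with adjusted p over all alternatives between 0.0024 and 0.0531. Ebf2, Prdm16 and Tfam overlapped between siRNAs. Tfam was at 61.9, 57.8 and 58.3 FPKM under siH19 and at 54.2, 60.2 and 64.6 FPKM under siCtrl, with a 95% interval of -0.18 to 0.17 for the log2 difference. Ebf2 was at 12.3, 10.98 and 11.4 FPKM, against 12.7, 12.7 and 11.98 FPKM, with an interval of -0.27 to 0.06. For Prdm16 the interval was wide, from -0.53 to 0.57.

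In all, 3 of the 8 regulators tested passed for siH19 in BAT at d3, 1 higher and 2 lower, where 8.57% of all genes tested passed, 6.39% as higher and 2.18% as lower. Other markers moved with siH19 in the same libraries. The 5 adipocyte markers summed to 30453 to 32757 FPKM under siH19 and to 33400 to 35047 FPKM under siCtrl. The 4 precursor markers summed to 470 to 505 FPKM against 261 to 297 FPKM, the 3 smooth muscle markers to 549 to 667 FPKM against 237 to 329 FPKM, and the 6 macrophage markers to 79.7 to 90.4 FPKM against 126 to 158 FPKM. None of these 4 sums overlapped between siRNAs, and their part in the regulators' differences was not tested.

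**Figure D3:**
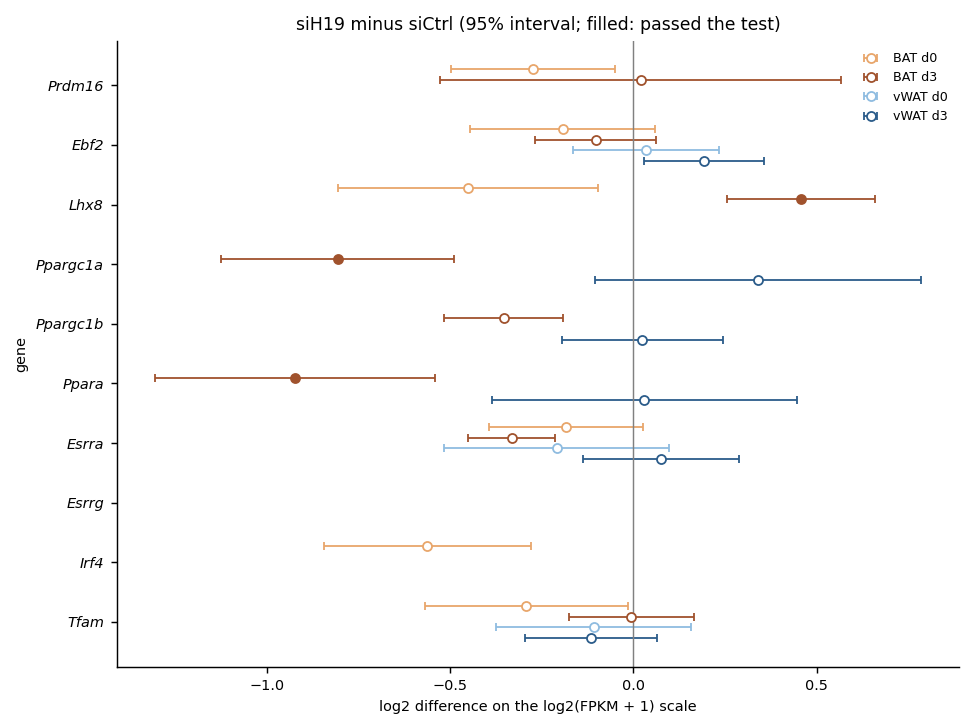
Difference between siH19 and siCtrl for each regulator tested (x axis, log2(FPKM + 1) scale, genes on the y axis) in BAT and vWAT at d0 and d3, with 95% intervals and filled symbols where the test was passed. Only BAT d3 holds filled symbols, with Ppara at -0.92, Ppargc1a at -0.81 and Lhx8 at 0.46.

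At d0, before differentiation, no regulator passed for siH19 in BAT, of 6 tested, where 1.94% of all genes passed in limma's fit. All 6 had lower means under siH19, where 43.0% of all genes tested were higher and the median log2 difference was -0.03. Irf4 was under 1 FPKM in every siH19 library and was tested through siCtrl alone, so its direction followed from the filter. Of the 6, 4 had an unadjusted p under 0.05. No share over all genes was taken for the unadjusted p, here or in other comparisons. Irf4 came closest, at 0.353, 0.657 and 0.503 FPKM under siH19 and 1.09, 1.24 and 1.31 FPKM under siCtrl, without overlap (adjusted p = 0.0603). Lhx8 was at 7.20, 10.4 and 7.09 FPKM under siH19 and 10.7, 12.7 and 10.97 FPKM under siCtrl (log2 difference -0.45, SE 0.15, adjusted p = 0.164). Irf4 passed when the variance was fitted without an intensity trend, and Irf4 and Lhx8 passed when all 24 libraries shared 1 fit. Over the same libraries the adipocyte markers summed to 1015 to 1432 FPKM under siH19 and to 2282 to 2470 FPKM under siCtrl, and the macrophage markers to 100 to 101 FPKM against 131 to 163 FPKM. The precursor markers summed to 734 to 754 FPKM against 596 to 675 FPKM, and the smooth muscle markers to 1943 to 2274 FPKM against 1673 to 1854 FPKM. None of these 4 sums overlapped between siRNAs, and their part in the d0 values was not tested.

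Lhx8 was thus lower at d0 and higher at d3 under siH19, and it was the only regulator of 9 tested whose siH19 effect differed between the days in BAT (difference 0.91, SE 0.18, adjusted p = 0.0115), where 9.06% of all genes tested passed and 7.79% passed as higher. Irf4 missed the threshold (0.47, SE 0.14, adjusted p = 0.0587) and passed under 4 of the 7 alternatives that kept all libraries. For Ppargc1a the difference between days was -0.37 with a 95% interval of -1.02 to 0.29, and for Ppara it was -0.50 with an interval of -1.43 to 0.44. Both genes varied between libraries at d0, Ppargc1a from 0.658 to 1.99 FPKM and Ppara from 0.171 to 2.12 FPKM in siCtrl. By the ratio of means, Ppargc1a under siH19 stood at 0.485 of siCtrl at d0 and at 0.539 at d3. Ppara stood at 0.392 and 0.497. At d0 both genes overlapped between siRNAs and lay under the filter. The added 1 FPKM shrinks their d0 differences, so the negative signs do not show a larger relative fall at d3.

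In vWAT no regulator passed for siH19, of 3 tested at d0 and 6 tested at d3, where 1.53% and 0.0305% of all genes passed in limma's fit. None of the 3 had an unadjusted p under 0.05 at d0, and 1 of the 6 did at d3. That gene was Ebf2, at 5.71, 5.86 and 5.54 FPKM under siH19 and at 5.13, 4.81 and 4.66 FPKM under siCtrl, without overlap (log2 difference 0.19, SE 0.07, adjusted p = 0.44). Ppargc1a overlapped, at 3.09, 3.52 and 1.99 FPKM under siH19 and at 1.86, 1.68 and 2.55 FPKM under siCtrl, with a 95% interval of -0.10 to 0.78. Ppara was at 3.49, 2.18 and 3.10 FPKM against 2.46, 3.59 and 2.46 FPKM, with an interval of -0.39 to 0.45. siCtrl H19 itself was lower in vWAT, at 8.59 ± 0.36 FPKM (SD, n = 3) at d3, against 89.8 ± 8.76 FPKM in BAT.

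The siH19 effect at d3 differed between the depots for 6 of 8 regulators tested, 5 of them lower and Lhx8 higher in BAT, where 10.5% of all genes tested passed, 3.52% as lower and 7.02% as higher. The difference was -1.15 (SE 0.24, adjusted p = 0.0154) for Ppargc1a, which passed under every alternative run. It was -0.95 for Ppara, -0.41 for Esrra, -0.38 for Ppargc1b, -0.30 for Ebf2 and 0.49 for Lhx8, with adjusted p between 0.0213 and 0.0479. The count of 6 fell to between 1 and 4 when any 1 of the 12 libraries was left out, and the call was lost in 2 of these 12 fits for Lhx8, in 9 for Ppara and Esrra and in 11 for Ppargc1b and Ebf2.

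The 2 regulators left were low throughout. Esrrg, a receptor of oxidative tissues, was at 1.32, 0.821 and 0.930 FPKM in BAT siCtrl d3 and at 0.494, 0.560 and 0.572 FPKM in BAT siH19 d3, without overlap. It stayed under the filter in every comparison made. With the filter lowered to 0.1 FPKM, the siH19 difference in BAT d3 was -0.38 (SE 0.11, adjusted p = 0.0785). In vWAT it was at 0.0083 to 0.334 FPKM. Irf4 was highest at d0, at 1.21 ± 0.11 FPKM (SD, n = 3) in BAT siCtrl and 0.794 ± 0.13 FPKM in vWAT siCtrl, and lower at d3, at 0.454 ± 0.03 and 0.113 ± 0.03 FPKM. In BAT siCtrl the fall passed (log2 difference -0.61, SE 0.08, adjusted p = 0.000493). Irf4 met the filter there through d0 alone, so the direction followed from the filter. In vWAT siCtrl Irf4 was tested only with the lowered filter, where the difference was -0.69 (SE 0.08, adjusted p = 0.000384).

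Irf4 is also expressed by lymphocytes and macrophages. The 4 B cell markers summed to at most 0.236 FPKM and the 3 T cell markers to at most 0.583 FPKM in any library, so the defining markers of both cell types were near 0. The 6 macrophage markers were present, at 79.7 to 163 FPKM in BAT and 278 to 588 FPKM in vWAT. Between siRNAs in BAT the macrophage sum and Irf4 were lower together under siH19 without overlap. At d0 the sum was 100 to 101 FPKM under siH19 and 131 to 163 FPKM under siCtrl, and at d3, where it was 79.7 to 90.4 against 126 to 158 FPKM, Irf4 was at 0.349 to 0.381 FPKM under siH19 and 0.426 to 0.485 FPKM under siCtrl. Between depots in siCtrl, and between days in vWAT siCtrl, the order was the other way. The sum was higher in vWAT than in BAT, and higher in vWAT at d3 (464 to 506 FPKM) than at d0 (287 to 318 FPKM). In BAT siCtrl the sum overlapped between the days, at 131 to 163 FPKM at d0 and 126 to 158 FPKM at d3, while Irf4 fell. The part of macrophages in the Irf4 level was not tested.

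Over the 8 group means on the log2(FPKM + 1) scale, the regulators fell into patterns that can be described by Pearson's r, with no test, since the groups share depots and days. Ppargc1a, Ppargc1b, Ppara and Esrra followed each other closely, with r between 0.968 and 0.987 for every pair. Prdm16 and Ebf2 correlated at 0.977, and Prdm16 had Ebf2 as its most similar gene of 12684. Irf4 correlated negatively with the 4 genes of the PGC-1 branch, between -0.5 and -0.291. The genes most like Ppargc1b were Dhrs7b, Gfm1 and Cpt1b (r = 0.999 for each), and those most like Esrra were Lrpprc (0.997), Mrps18b (0.996) and Mrs2 (0.995). Those most like Ppargc1a were Pck1 (0.997), the gluconeogenic and glyceroneogenic enzyme, Tmem45b (0.996) and Ctcflos (0.994), and those most like Ppara were Rnmtl1 (0.997), Pld6 (0.996) and Mto1 (0.994). For the remaining genes, the highest r was with Slc52a2 for Ebf2 (0.989), Tfrc for Esrrg (0.962), Nrbf2 for Irf4 (0.977) and Leo1 for Tfam (0.994).

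The stretches below are shown because they place, just before the starts of 4 regulators of the mitochondrial programme, letters that known activators of that programme bind. RefSeq promoter windows (GRCm38.p6, the 250 bases before each start) were used for 8 of the 10 regulators, all but Ebf2 and Ppargc1b. They were searched on both strands for TGACG (a half-site of the cAMP response element), AAGGTCA (an ERR half-site), CCGGAAG (bound by GABP and other ETS factors), GCGCATGC (the core of an NRF1 site) and CCCNNGGG (the core of an EBF site). Capitals mark the match, and each stretch is 30 bases long, 5′ to 3′ on the strand of the gene.
Ppargc1a, chr5:51567758-51567787, minus strand, TGACG on the other strand: aggtgccctcccaCGTCActgagctccagt
Ppara, chr15:85735735-85735764, plus strand, GCGCATGC on both strands, overlapping: gggctcggtgGCGCATGCGCgcggactagg
Esrra, chr19:6921824-6921853, minus strand, GCGCATGC on the other strand: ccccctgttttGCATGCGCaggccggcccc
Tfam, chr10:71238074-71238103, minus strand, CCGGAAG: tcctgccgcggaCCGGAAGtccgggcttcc

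The match in Ppargc1a, a gene known to respond to cAMP, began 49 bases before the start, that in Ppara 31, that in Esrra 34 and that in Tfam 47. Of all 32851 mouse windows, TGACG was in 17.8%, GCGCATGC in 2.26% and CCGGAAG in 6.91%. Ppara also held TGACG and CCCNNGGG (11.8% of windows) further from its start. AAGGTCA, in 4.08% of windows, was in none of the windows of these 8 regulators, and the windows of Prdm16, Lhx8, Irf4 and Esrrg held none of the 5 motifs. Ppargc1a and Ppara, which fell with siH19 in BAT d3, and Tfam, which overlapped between siRNAs, each held some match. In the GENCODE annotation of GRCm38 the Tfam stretch lies in an exon of Tfam, the Ppara stretch within the gene but in none of its exons, and the stretches of Ppargc1a and Esrra before their genes. A match is a description of letters, not of binding.

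Around these regulators, part of the genes known to be switched on by PGC-1, ERR and PPARα fell in the same libraries. Of the 22 listed, 20 were tested for siH19 in BAT d3, and 8 fell and none rose, where 8.57% of all genes tested passed and 2.18% as lower, and between 7 and 17 targets were called over the alternatives. The list's median log2 difference was -0.34, against 0.05 over all genes tested. Cidea, a lipid droplet protein of brown fat, was at 14.2, 19.5 and 21.6 FPKM under siCtrl and 3.87, 4.48 and 3.63 FPKM under siH19 (log2 difference -1.95, SE 0.16, adjusted p = 0.00197). Ucp1 was at 8.84, 11.2 and 16.3 FPKM against 2.00, 2.93 and 3.63 FPKM (-1.75, SE 0.24, adjusted p = 0.0062). Neither overlapped between siRNAs. Cox8b, a cytochrome oxidase subunit, stood at 0.403 and Cpt1b, which brings fatty acids into mitochondria, at 0.605 of the siCtrl level. From d0 to d3 in BAT siCtrl, 18 of 20 tested targets rose and 1 fell, where 29.9% of all genes tested passed as higher. In vWAT d3, none of 19 passed for siH19 in limma's fit, where 0.0305% of all genes passed, with 3 at an unadjusted p under 0.05.

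For siH19 in BAT d3 the other 4 lists are read against the 6.39% of all genes tested that passed as higher and the 2.18% that passed as lower. Of the partners of Prdm16 and Ebf2 and other factors of brown identity, 1 of 18 tested rose, Tbx15 (log2 difference 0.47, SE 0.12, adjusted p = 0.0493). Of the repressors of the brown programme, 0 of 9 passed in limma's fit, with 2 at an unadjusted p under 0.05. All 9 had higher means under siH19 on the log2 scale, where 59.5% of all genes tested were higher. Of the genes for mitochondrial DNA transcription and replication, 1 of 20 fell, Lrpprc, which stabilises mitochondrial mRNA (-0.39, SE 0.10, adjusted p = 0.0494). Of the receptor partners and modifiers of PGC-1, Mef2c rose, a transcription factor of muscle and other lineages (0.83, SE 0.13, adjusted p = 0.00829), and Lpin1 fell, a phosphatase that also acts as a PGC-1 coactivator (-0.45, SE 0.04, adjusted p = 0.00248), of 22 tested. Both the call of the first list and that of the mitochondrial DNA list were lost under some alternatives, where the counts ranged from 0 to 1 and from 0 to 2. The medians of these 4 lists lay at 0.02, 0.18, -0.03 and -0.04.

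**Figure D4:**
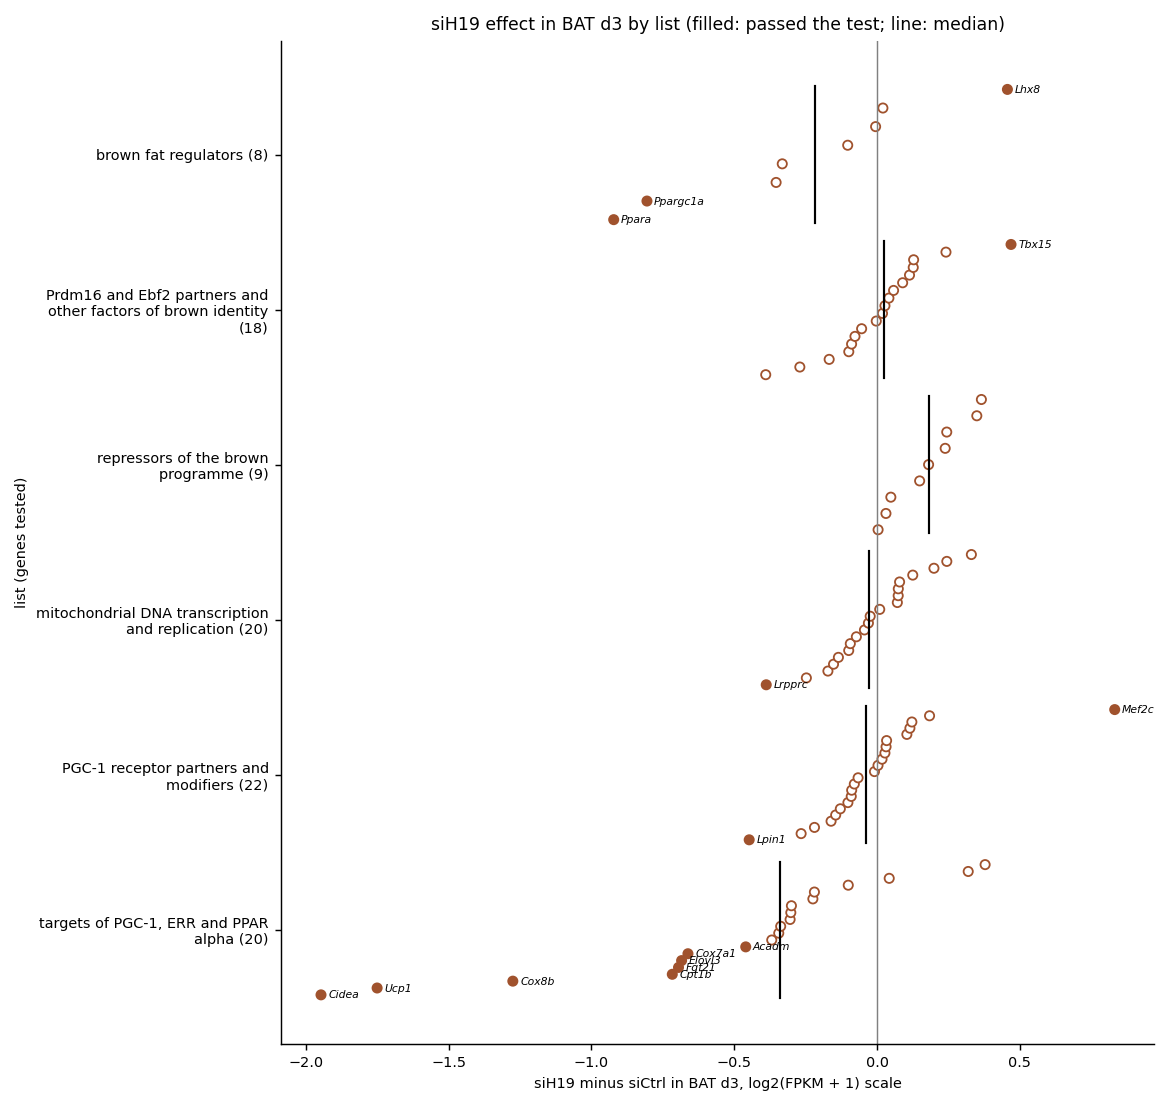
Difference between siH19 and siCtrl in BAT d3 (x axis, log2(FPKM + 1) scale) for every gene tested in 6 lists (y axis, number tested in parentheses), with filled and named symbols where the test was passed and a line at the median of each list. The targets of PGC-1, ERR and PPARα have the lowest median, -0.34, and hold 8 filled symbols, from -0.46 for Acadm to -1.95 for Cidea.

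Over the differentiation in BAT siCtrl, the same lists moved in both directions, where 65.2% of all genes tested passed, 29.9% as higher and 35.3% as lower. Of the mitochondrial DNA genes, 10 of 20 rose and 4 fell, led by Lrpprc (log2 difference 2.11) and Mterf2 (2.05). Of the PGC-1 partners and modifiers, 10 of 22 rose and 6 fell, led by Lpin1 (4.26) and the oxysterol receptor gene Nr1h3 (3.82). Of the factors of brown identity, 4 of 17 rose, led by Nfia (1.74), and 6 fell, and of the repressors, 4 of 9 rose and 4 fell, among them Foxp1, a forkhead factor (-1.97). Between the depots in siCtrl at d3, 6 of 17 tested factors of brown identity were higher in BAT and 2 were lower. Of all genes tested, 48.6% passed and 16.5% passed as higher in BAT. Cebpd was lower in BAT, at 5.59 FPKM against 24.6 FPKM in vWAT on average. Tbx15, a T-box factor of brown fat, was at 11.04 FPKM in BAT and 0.132 FPKM in vWAT. Zic1 was at 3.39 FPKM in BAT and listed at 0 in vWAT. Like Lhx8, both factors were low in vWAT on either day, at most 1.11 FPKM for Tbx15 and 0.195 FPKM for Zic1 in any library.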

How the data were processed

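Poly(A) RNA of 24 cultures of mouse stromal vascular cells was sequenced, 3 libraries in each of 8 groups. Per the labels a directional kit and paired-end reads were used, whereas the study's methods name single-end reads. The authors ran the QuickNGS pipeline against mouse genome build GRCm38, with TopHat2 2.0.10 and Cufflinks 2.2.1 named in the submitters' processing notes. The deposited table holds 1 value per gene and library, taken here as FPKM as the authors' Cufflinks step gives it, since the table names no unit. It holds no counts, so depth is known only as relative steps between low values, and no count model was used. Whether fragments were assigned by strand is not given in the sources used here.

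Values were analysed as log2(FPKM + 1) in limma 3.58.1 (R 4.3.3) with an intensity trend, over genes with at least 1 FPKM in at least 3 libraries of the comparison, fitting only the libraries compared. Benjamini-Hochberg adjusted p-values cover all genes tested, and a call needed an adjusted p under 0.05 and, outside interactions, a 1.3-fold change. The fits were checked on simulated data. Alternatives were a pseudocount of 0.1, a filter of 0.1 FPKM or none, median-ratio scaling, no fold minimum, no intensity trend, 1 fit of all 24 libraries, a replicate block and leaving out each library in turn. No sample column was left out. Figures were drawn with matplotlib.

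The text names all 10 regulators, H19 as the check of the knockdown, up to 4 called genes with the largest change in each list, and the 3 genes most correlated with each regulator that reached a group mean of 1 FPKM. Zic1 and Tbx15 values in single vWAT libraries were added after they were seen. The 10 regulators, the gene lists and the markers were chosen with earlier results of these data known. Foxc2, a further factor on the identity list, was not analysed here. One gene of the repressor list is counted but its values are not reported here. Symbols missing from the table were filled by Ensembl identifier.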

Additional observations from a re-analysis of the deposited data

Results flagged for a closer look

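Effects that differed between groups, by the interaction term of limma, are listed here with the difference of the 2 log2 changes. The rise from d0 to d3 in siCtrl was larger in BAT than in vWAT for Ppara (2.45), Ppargc1b (2.17), Ppargc1a (1.71), Esrra (1.47), Tfam (0.59) and Ebf2 (0.32).

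The siH19 effect at d3 was more negative in BAT than in vWAT for Ppargc1a (-1.15), Ppara (-0.95), Esrra (-0.41), Ppargc1b (-0.38) and Ebf2 (-0.30) and more positive for Lhx8 (0.49). Lhx8 was near 0 in vWAT, so its interaction restates its effect in BAT. In BAT, the siH19 effect on Lhx8 was more positive at d3 than at d0 (0.91). Groups of 3 libraries were too small to screen for single outlying libraries.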

How the results depend on the processing

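Over all alternatives, 51 called results for single regulators were refitted 779 times, and 708 fits kept the call, 71 lost it and 0 turned its direction. The number of regulators called for siH19 in BAT d0 went from 0 to 2 with all 24 libraries in 1 fit and to 1 without the intensity trend. For siH19 in BAT d3 it went from 3 to 5 under median-ratio scaling and to 5 with no fold minimum, by the addition of Ppargc1b and Esrra. For the depot by siRNA interaction at d3 it went from 6 to 3 with a pseudocount of 0.1, to 3 with a filter of 0.1 FPKM, to 1 with no filter, to 3 with all 24 libraries in 1 fit, and to between 1 and 4 when 1 library was left out. For the day by siRNA interaction in BAT it went from 1 to 2 with a filter of 0.1 FPKM, with no filter, with all 24 libraries and without the trend, and lay between 1 and 2 when 1 library was left out. The causes were not tested.

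Replicate numbers did not pair the samples: deviations of same-numbered libraries correlated between -0.113 and 0.0616. With the replicate block, 2 regulators were called for the depot by siRNA interaction, Lhx8 and Ppargc1a, and the 3 calls for siH19 in BAT d3 stood. Over all genes the block left 2 calls for siH19 in BAT d0 (245 without it), 2 in vWAT d0 (200) and 0 in vWAT d3 (4).

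Over all genes, 1 fit of 24 libraries gave 518, 385 and 20 calls in these 3 comparisons, and no filter gave 35 and 65 in the first pair. Without the fold minimum, 395 genes were called for siH19 in BAT d0, 2023 in BAT d3 (1071 with it) and 6386 between depots at d0 (4096 with it). Median-ratio scaling moved the share of calls that were higher from 74.6% to 60.5% for siH19 in BAT d3, from 21.5% to 32.3% in vWAT d0, from 32.8% to 48.0% and from 33.9% to 45.3% between depots at d0 and d3, from 66.6% to 45.6% for depot by siRNA and from 86.0% to 61.1% for day by siRNA. Without counts, the precision of regulators under 1 FPKM (Esrrg, Irf4) could not be given.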
